A study of Mus musculus with 6 samples.

Results

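The genes described here are 39 components of the secretory endoplasmic reticulum (ER) and of the unfolded protein response, chosen by name from a list and matched by gene symbol to the array's probe sets. All 39 of the 39 had a probe set among the 18193 genes represented, and 37 passed the filter on dim genes. Bladders of Get1 -/- (knockout) and Get1 +/- (heterozygous) mouse embryos at embryonic day 18.5 were profiled with 3 expression arrays per genotype. Get1 is another name for Grhl3, which encodes a transcription factor of the grainyhead family, and the series description asks for molecular changes behind bladder defects in the knockout. The knockout group carries the Get1 null allele on both chromosomes and the heterozygous group on one, so every animal carried at least one null allele, and no treatment is given. Wild-type bladders were not analysed here. Strain, sex and any pooling were not given in the sources used here. Accordingly, p-values measure the spread between these samples, which the series description counts as separate mice. The first number in the title of Get1 -/- array 1 is unlike that of the remaining 5, without a stated meaning. In whole-organ RNA, fewer cells of a type and less RNA per cell cannot be told apart.

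Secreted and membrane proteins enter the ER through the Sec61 channel, lose their signal peptide, and are folded there by chaperones and disulfide isomerases. Proteins that fail to fold are pulled back to the cytosol and degraded. When unfolded protein builds up, the sensors IRE1 (genes Ern1 and Ern2), ATF6 and PERK raise the output of this machinery, largely through the transcription factors XBP1, ATF6 and ATF4. The machinery is most developed in cells that secrete heavily, such as goblet cells, and in the bladder it also serves the uroplakin-bearing surface cells and the collagen-making stroma.

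As a check of the labels, the Grhl3 probe set read 76.6, 21.5 and 119.7 on the Get1 -/- arrays, against 143.3, 132.9 and 125.6 on the Get1 +/- arrays. All 3 knockout values lay below the heterozygous ones, and the difference of -0.94 did not pass the test over all genes. The position of the probe set in relation to the deletion is unknown, so it may check nothing. Most markers of smooth muscle and urothelium gave signal in both groups. The summed signal of 10 smooth muscle markers was 175046 to 204944 in Get1 -/- and 136050 to 176962 in Get1 +/- bladders, and that of 12 urothelial markers was 14544 to 17443 in Get1 -/- and 19203 to 25641 in Get1 +/- bladders. Of the 12 urothelial markers 3 were called lower in Get1 -/- bladders, against 0.0628% of all genes, and 0 higher. They were Snx31, Upk2 and Psca, with differences of -5.58, -3.03 and -2.25. Snx31 read 1.8 to 20.6 in Get1 -/- and 811.9 to 1531 in Get1 +/- bladders. Of the 12 markers 4 had a difference above 0. Sums of goblet cell and enterocyte markers of the gut also moved with the genotype. The summed signal of 13 goblet and secretory gut markers was 27040 to 41119 in Get1 -/- and 1531 to 2051 in Get1 +/- bladders, and that of 13 enterocyte markers was 8180 to 13758 in Get1 -/- and 1193 to 1943 in Get1 +/- bladders. Of 11 tested enterocyte markers 10 had a difference above 0, and Krt20 had -0.345. Sums of 10 enteroendocrine markers, also of the gut, overlapped and leaned the other way (3572 to 6667 in Get1 -/- and 6510 to 7576 in Get1 +/- bladders). Of the 7 tested 4 had a difference above 0, and 0 were called. Sums of 9 pancreatic acinar markers overlapped between the groups (231 to 388 in Get1 -/- and 274 to 414 in Get1 +/- bladders). Those of 8 plasma cell markers, another heavily secreting type, were 14456 to 16227 in Get1 -/- and 12307 to 14319 in Get1 +/- bladders, with 0 of the 5 tested called. Nearly all of that sum was Sdc1, which epithelia also express (14084 to 15987 in Get1 -/- and 11889 to 13737 in Get1 +/- bladders), named after its values were seen. Of the 5 tested plasma cell markers 3 had a difference below 0, with a median of -0.57. Sums of 10 fibroblast and matrix markers were 89072 to 100106 in Get1 -/- and 94434 to 117283 in Get1 +/- bladders.

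None of the 37 tested members passed the test. At an adjusted p under 0.05 (limma, Benjamini-Hochberg over 12735 genes), 0 members were higher and 0 were lower in Get1 -/- bladders, while 0.448% of all genes tested were higher and 0.0628% lower, 0.51% in all. At an unadjusted p under 0.05 the members' counts were also 0 and 0, against 3.63% and 4.3% of all genes. Differences are Get1 -/- minus Get1 +/- on the log2(signal + 16) scale throughout. They lay between -0.38 (Syvn1) and 0.48 (Creb3l1), so 0 members differed by more than 0.5. The adjusted p ran from 0.734 (Edem1) to 0.998 (Xbp1).

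The small differences leaned one way. Of the 37 members 30 had a difference above 0, while 45.1% of all genes tested had one. The median difference was 0.17 for the members and -0.03 for all genes tested. On single arrays the median deviation of the members from their Get1 +/- mean was 0.21, 0.14 and 0.18 on Get1 -/- arrays 1, 2 and 3, against 0.10, -0.06 and -0.09 on Get1 +/- arrays 4, 5 and 6. Array 4 thus lay close to the Get1 -/- arrays. Of the 3 tested liver markers, Alb and Afp were highest on array 4, at 995.4 and 965.7. They read at most 124.2 and 170.4 on the other arrays. The remaining one, Ttr, read 3076 on array 4, but 5344 and 4824 on Get1 -/- arrays 2 and 3. The part of liver markers in the array 4 values was not tested. The summed signal of all 39 genes overlapped, at 159450 to 172518 in Get1 -/- and 138665 to 165168 in Get1 +/- bladders. Without Get1 +/- array 6 the median of the members was 0.11, without Get1 -/- array 1 it was 0.12, and with array weights it was 0.11. The median was above 0 in each of the 17 alternative analyses. Bright genes lay slightly higher than dim ones over the whole array: with the genes tested in 4 equal groups by mean level, the median difference was 0.0050 in the brightest group, which held 19 members, and -0.11 in the dimmest, which held 4. In the brightest group 17 of the 19 members had a difference above 0, against 50.8% of all its genes. Going down in level, the other groups had 5 of 8, 5 of 6 and 3 of 4, against 45.6%, 42.5% and 41.6%. The members' median was 0.16 in the brightest group, then 0.035, 0.32 and 0.27. Other cell types' markers moved with the same groups. Of 10 smooth muscle markers 10 had a difference above 0 (median 0.31), and 0 were called. In 4 of them the groups did not overlap, with Get1 -/- higher, against 6.07% of all genes tested. Of 10 fibroblast and matrix markers 8 had a difference below 0 (median -0.24), and 0 were called. The part of these markers, and of the urothelial and gut markers above, in the lean was not tested.

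**Figure D1:**
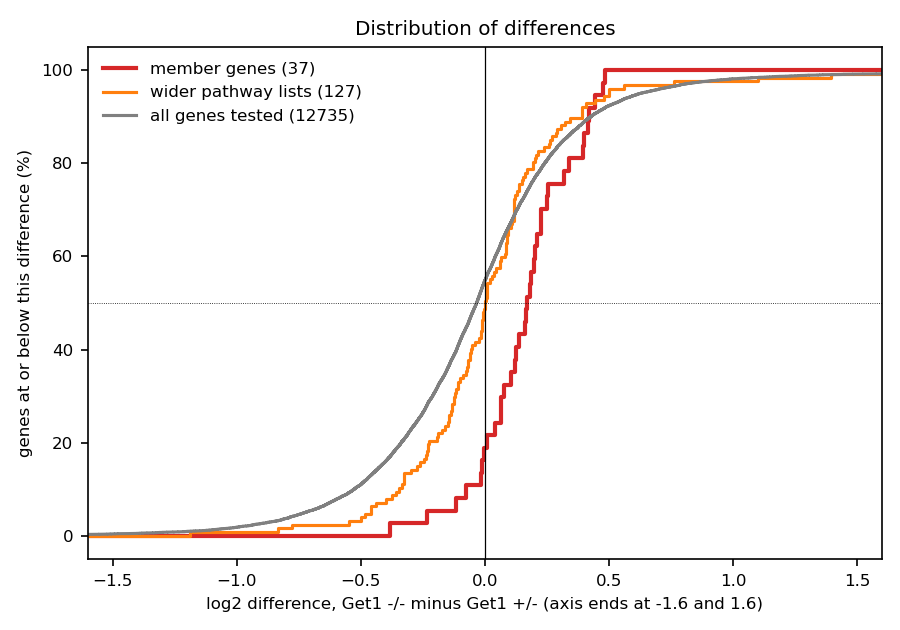
Cumulative share of genes (vertical axis, percent) at or below each log2 difference between Get1 -/- and Get1 +/- bladders (horizontal axis, ending at -1.6 and 1.6), for 37 members, 127 genes of the wider pathway lists and 12735 genes tested. The curve of the members lies right of that of all genes up to a difference of about 0.4, where they cross, with medians of 0.17 and -0.03, and the wider lists have a median of 0.

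The intervals show which sizes of change the arrays allow. The 95% interval of the difference reached past 1 on the log2 scale, a 2-fold rise, for 9 of the 37 members, and below -1 for 1 member. The interval was widest upward for Manf (up to 2.61-fold) and downward for Syvn1 (down to 0.425-fold). For Hspa5, the most used marker of the response, it ran from 0.741-fold to 1.47-fold. For 26 of the 37 members the difference was smaller than its own standard error. These are limits on each gene separately, and do not show that levels were equal.

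**Figure D2:**
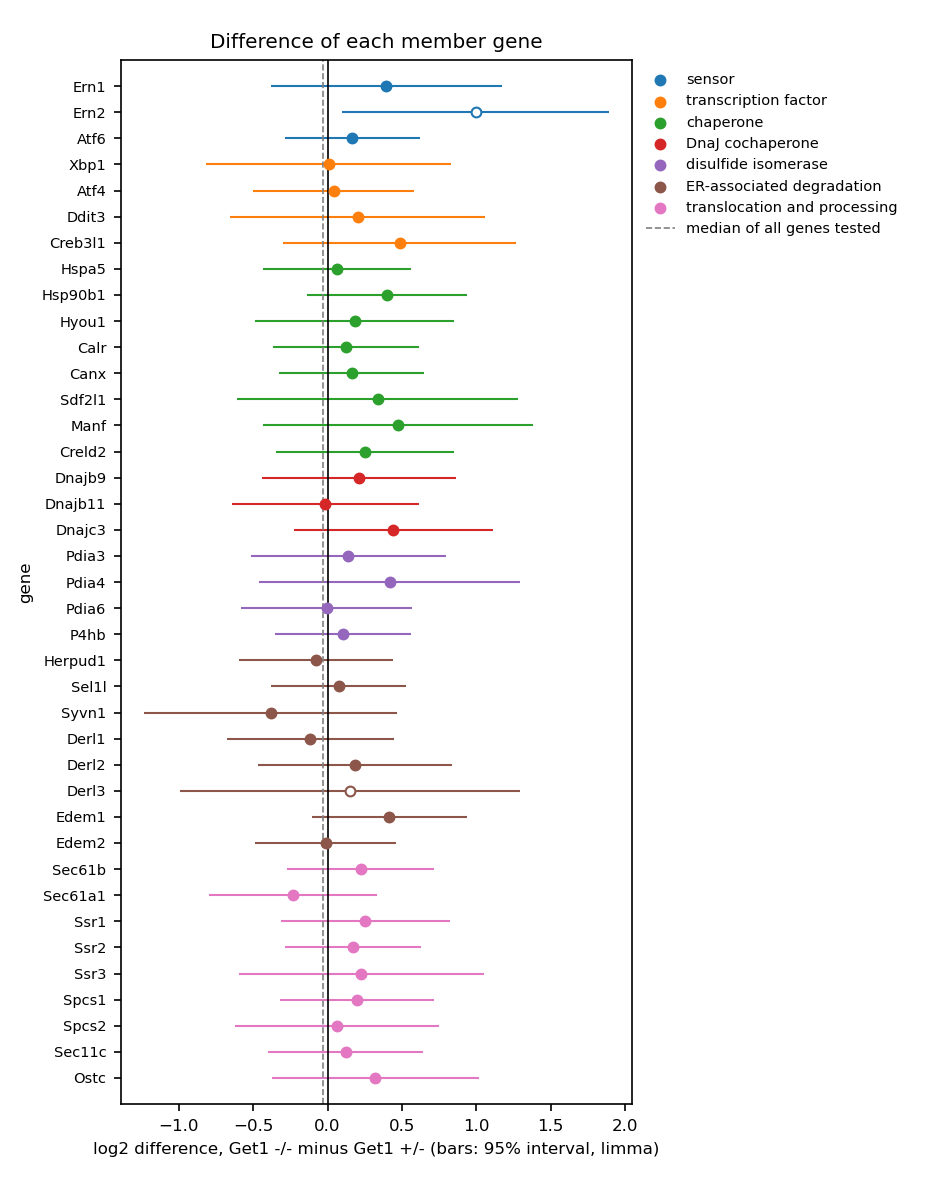
Log2 difference of each of the 39 members (Get1 -/- minus Get1 +/-, horizontal axis) with its 95% interval from limma, coloured by role, filled circles for the 37 genes past the dim filter and open circles for Ern2 and Derl3, fitted without it. The intervals of all members except Ern2 include 0, and the dashed line marks the median of all genes tested at -0.03.

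Among the sensors, the epithelial paralogue Ern2 had the largest difference of any member, and it was dim. Ern2 encodes IRE1 beta, the form of the sensor known from goblet cells and other mucus-secreting epithelium. Its signal was 25.3, 47.1 and 65.2 on the Get1 -/- arrays, against 27.5, 15.9 and 3.3 on the Get1 +/- arrays. The groups overlapped through Get1 -/- array 1 and Get1 +/- array 4. The difference was 0.99 (SE 0.39, limma adjusted p = 0.62 without the dim filter, exact permutation p = 0.2), and its mean lay below the filter. It was 0.46 with an offset of 64 and 1.78 with an offset of 1. The goblet markers given above moved with the same groups, and their part in the Ern2 values was not tested.

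Ern1, the IRE1 alpha form found in most cells, read 305.4, 438.0 and 514.9 on the Get1 -/- arrays, against 395.1, 385.4 and 190.9 on the Get1 +/- arrays. Get1 +/- array 6 was the lowest and the groups overlapped (difference 0.39, limma adjusted p = 0.851). Without array 6 the difference was 0.07, and over all 6 ways to leave out 1 array it ran up to 0.60. Atf6, the sensor that is cut in the Golgi to release a transcription factor, was the steadiest of the 3. It averaged 8.63 ± 0.08 in Get1 -/- and 8.46 ± 0.10 in Get1 +/- bladders (log2 level, SD, n = 3 each, limma adjusted p = 0.902).

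All 4 transcription factors of the response overlapped between the genotypes. Xbp1, whose mRNA is spliced by IRE1 into the active form, read 1073, 1176 and 792.4 on the Get1 -/- arrays, against 972.7, 625.5 and 1611 on the Get1 +/- arrays. Both the lowest and the highest array were heterozygous, and the difference was 0.0080 (SE 0.36, limma adjusted p = 0.998). Xbp1 is also needed for goblet and Paneth cells of the gut. Its 4 probe sets had differences between -0.06 and 0.26, and spliced and unspliced forms were not separated here. Atf4, the effector of PERK and of amino acid shortage, read 3127, 3002 and 2270 on the Get1 -/- arrays, against 2568, 3195 and 2380 on the Get1 +/- arrays. The groups overlapped on this probe set (difference 0.04, limma adjusted p = 0.987). A dim Atf4 probe set, below the filter, read 1.1 to 6.2 in Get1 -/- and 7.1 to 45.1 in Get1 +/- bladders (difference -1.10). Ddit3, the CHOP factor induced under lasting ER stress, read 87.3, 176.5 and 125.7 on the Get1 -/- arrays, against 58.2, 144.0 and 139.5 on the Get1 +/- arrays. Its spread within each genotype exceeded the difference of 0.20 (SE 0.37, limma adjusted p = 0.95). Creb3l1, a membrane-bound factor known for collagen secretion in bone, read 273.8, 233.9 and 398.5 on the Get1 -/- arrays, against 128.0, 228.0 and 295.7 on the Get1 +/- arrays. It had the largest difference of the members tested, 0.48 (SE 0.34, limma adjusted p = 0.797), and Get1 +/- array 6 lay above 2 of the Get1 -/- arrays. With 1 array left out the difference ran from 0.17 (without Get1 +/- array 4) to 0.73 (without Get1 +/- array 6), and it was 0.28 without Get1 -/- array 3.

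The chaperones are the classical output of the response, and all 8 had a difference above 0 without passing the test (median 0.22, range 0.06 to 0.48). Hspa5 encodes BiP, the main Hsp70 chaperone of the ER. Its signal was 10233, 10613 and 12324 on the Get1 -/- arrays, against 12344, 9650 and 9851 on the Get1 +/- arrays. The 2 highest arrays were one of each genotype, and the difference was 0.06 (SE 0.21, limma adjusted p = 0.976). Hsp90b1 encodes GRP94, the Hsp90 chaperone of the ER. Its signal was 3226, 3529 and 4063 on the Get1 -/- arrays, against 3163, 2184 and 2913 on the Get1 +/- arrays. By brightest probe set, it was the 1 member of 37 whose groups did not overlap with Get1 -/- higher, against 6.07% of all genes. In the same measure 0 members did so with Get1 -/- lower, against 7.36% of all genes. The gap between the nearest arrays was small, and the difference was 0.40 (SE 0.23, limma adjusted p = 0.752, exact permutation p = 0.1, the lowest value possible with 3 arrays a genotype). A second Hsp90b1 probe set had a difference of 0.44, and its groups overlapped.

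The ER stress response element, through which ATF6 and XBP1 are known to act, was found in the promoters of some members, and the matches are shown because the element is the textbook link between these factors and their targets. It was searched as CCAAT and CCACG separated by 9 bases, on both strands, from 250 bases before to 50 bases after each start, in RefSeq promoter sequences of build GRCm38.p6. Of the 39 members 29 had an entry, and 9 of these held a match, against 37 of all 27025 genes with an entry (0.137%). Capitals mark the fixed letters, and each site is written 5′ to 3′ on the strand named, with its position in that build.
Hspa5, chr2:34772025-34772043, + strand: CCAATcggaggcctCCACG
Hsp90b1, chr10:86705533-86705551, + strand: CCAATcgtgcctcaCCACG
Hsp90b1, chr10:86705638-86705656, - strand: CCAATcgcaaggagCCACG
Calr, chr8:84847075-84847093, + strand: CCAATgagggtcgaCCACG
Canx, chr11:50325800-50325818, - strand: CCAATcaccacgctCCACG
Creld2, chr15:88819520-88819538, - strand: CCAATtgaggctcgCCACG
Dnajc3, chr14:118937827-118937845, + strand: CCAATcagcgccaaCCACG
Pdia6, chr12:17266491-17266509, + strand: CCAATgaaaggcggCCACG
Syvn1, chr19:6046532-6046550, + strand: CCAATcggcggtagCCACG
Derl3, chr10:75893242-75893260, - strand: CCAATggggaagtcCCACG

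A shorter form, ATTGG and CCACG separated by 1 base, was found in Dnajb11 and Herpud1 and in 12 of the 27025 genes (0.0444%). Both forms end in the same letters, and 0 members held a match to each.
Dnajb11, chr16:22857852-22857862, + strand: ATTGGcCCACG
Herpud1, chr8:94386377-94386387, + strand: ATTGGgCCACG

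The XBP1 motif TGACGTGG was found in 0 of the 29 promoters (0.714% of all genes), the ATF4 motif TGATGCAA in 1, that of Herpud1 (1.03% of all genes), and the grainyhead motif AACCGGTT in 0 (0.174% of all genes). These motifs were searched on both strands too, and such a count says only whether the letters are in this window. The 250 bases before the start of Hspa5 (chr2:34771840-34772089, + strand) are shown, since this is the reference promoter of the response. Capitals mark the 1 exact match, and inexact forms of the element were not searched for.
Hspa5: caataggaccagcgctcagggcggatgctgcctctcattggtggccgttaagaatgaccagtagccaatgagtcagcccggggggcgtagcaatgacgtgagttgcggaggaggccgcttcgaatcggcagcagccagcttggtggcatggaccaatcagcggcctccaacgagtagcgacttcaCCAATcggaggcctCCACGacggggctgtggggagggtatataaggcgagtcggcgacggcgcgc

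The same stretch of Hsp90b1 (chr10:86705445-86705694, - strand, written in the direction of the gene) is shown because it is the 1 member whose groups did not overlap by brightest probe set. It holds 2 elements in opposite directions, so the capitals of the second read as its complement.
Hsp90b1: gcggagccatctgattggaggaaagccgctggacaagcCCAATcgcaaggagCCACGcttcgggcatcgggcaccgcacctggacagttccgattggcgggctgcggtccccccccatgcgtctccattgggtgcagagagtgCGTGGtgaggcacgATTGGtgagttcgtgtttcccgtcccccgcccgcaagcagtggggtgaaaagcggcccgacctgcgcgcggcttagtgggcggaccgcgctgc

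Members with either form of the element had a smaller median difference than those with neither. Of the 10 tested, 6 had a difference above 0, with a median of 0.09 and a range from -0.38 (Syvn1) to 0.44 (Dnajc3). Of the 18 tested members with a promoter entry and neither form, 17 had a difference above 0, with a median of 0.20. With the longer form alone, 6 of 8 tested members had a difference above 0, with a median of 0.14. Of the 9 tested members without a promoter entry, 7 had a difference above 0, with a median of 0.17. These sets were not tested against each other.

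Of the other chaperones, Calr and Canx, the calreticulin and calnexin that bind sugar chains of new glycoproteins, varied least. Calr averaged 13.94 ± 0.09 in Get1 -/- and 13.82 ± 0.20 in Get1 +/- bladders, and Canx 13.32 ± 0.13 in Get1 -/- and 13.16 ± 0.18 in Get1 +/- bladders (log2 levels, SD, n = 3 each). Their differences were 0.12 and 0.16 (limma adjusted p = 0.945 and 0.916), and the groups overlapped. Manf, a secreted ER stress protein, read 2280, 1303 and 1488 on the Get1 -/- arrays, against 1933, 1203 and 697.9 on the Get1 +/- arrays. Array 1 and array 4, one of each genotype, were the highest, and the difference was 0.48 (SE 0.39, limma adjusted p = 0.842). It was 0.11 without Get1 +/- array 6, 0.24 without Get1 -/- array 1 and 0.83 without Get1 +/- array 4. Sdf2l1, a small partner of BiP, read 145.4, 90.0 and 98.9 on the Get1 -/- arrays, against 174.5, 59.7 and 51.6 on the Get1 +/- arrays. Array 4 alone put the heterozygous range across that of the knockouts. Creld2, another secreted stress protein, was low on Get1 +/- array 5, at 252.9 (difference 0.25, limma adjusted p = 0.882). Hyou1, the large Hsp70-like chaperone that resets BiP, had its highest signal on Get1 +/- array 6 (871.1) and its lowest on Get1 +/- array 5 (443.1).

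The DnaJ cochaperones, which start the ATP cycle of BiP, overlapped between the genotypes in all 3 cases. Dnajc3 read 3897, 2617 and 2436 on the Get1 -/- arrays, against 2811, 2132 and 1639 on the Get1 +/- arrays (difference 0.44, limma adjusted p = 0.782). Less bright Dnajc3 probe sets had differences of 0.541, 0.005, -0.011 and 0.076. Dnajb9 read 1856, 1202 and 1480 on the Get1 -/- arrays, against 1622, 1392 and 938.7 on the Get1 +/- arrays (difference 0.21, limma adjusted p = 0.920). Dnajb11 read 1082, 769.1 and 834.2 on the Get1 -/- arrays, against 1233, 731.3 and 794.2 on the Get1 +/- arrays (difference -0.015, limma adjusted p = 0.997). In each of them the 2 highest arrays were Get1 -/- array 1 and Get1 +/- array 4. That pair was highest for 9 of the 37 members, which also included Manf, Sdf2l1, Canx, Herpud1, Ssr1 and Spcs2, and for 7.39% of all genes tested, a pattern noticed after the values were seen.

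**Figure D3:**
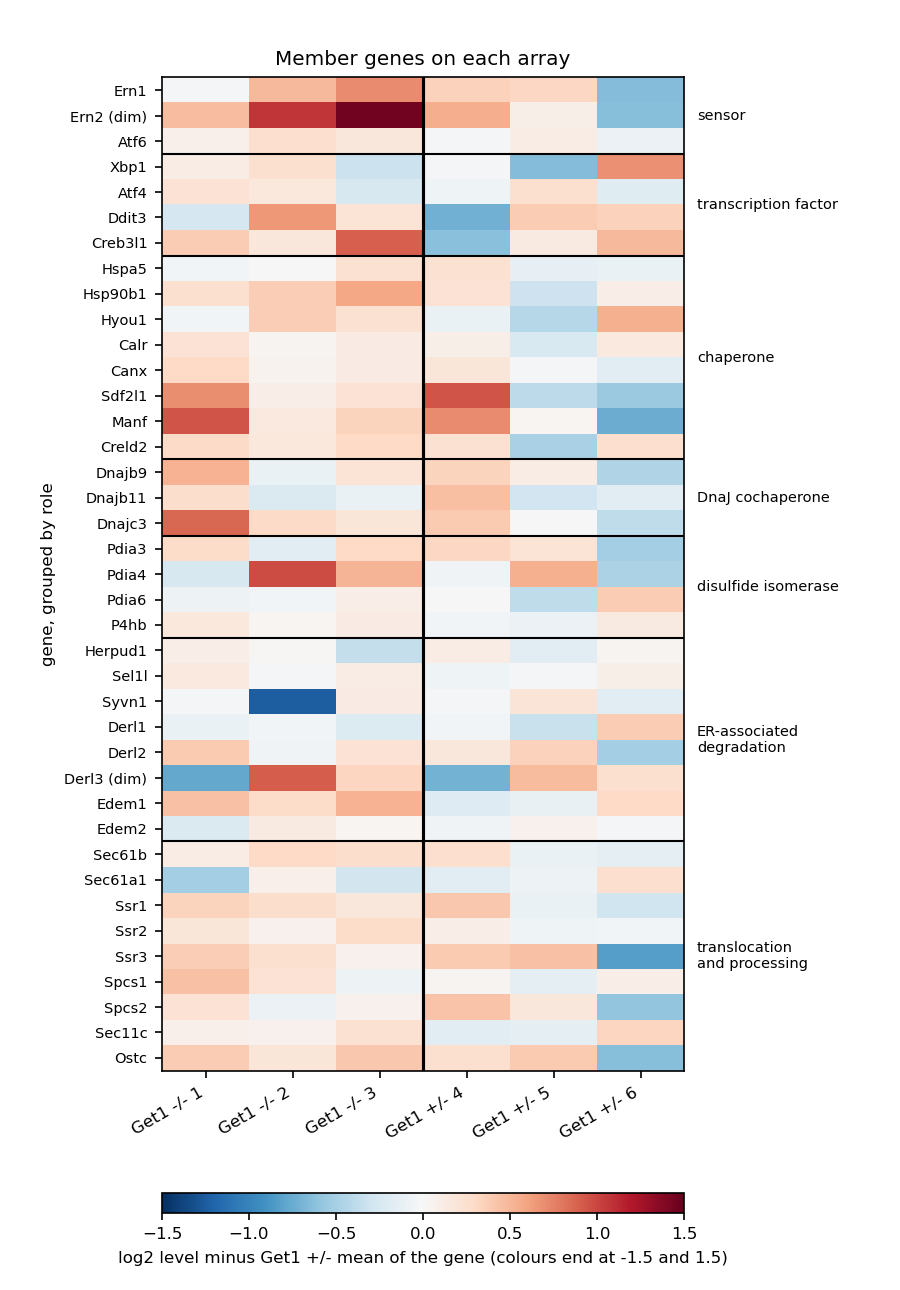
Log2 level of each of the 39 members minus its Get1 +/- mean (colour, ending at -1.5 and 1.5) on the 3 Get1 -/- and 3 Get1 +/- arrays, in rows grouped by role. Manf, Sdf2l1, Dnajb9, Dnajb11 and Dnajc3 are red on arrays 1 and 4, Ssr3, Spcs2 and Ostc are blue on array 6, and Ern2 is deepest red on Get1 -/- array 3.

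Of the 4 disulfide isomerases, which form and reshuffle disulfide bonds, P4hb was the steadiest. It read 20969, 19202 and 20434 on the Get1 -/- arrays, against 18177, 17587 and 20652 on the Get1 +/- arrays (difference 0.11, SE 0.20, limma adjusted p = 0.951). P4hb is also a subunit of the enzyme that hydroxylates collagen. Pdia3, which works with calnexin and calreticulin, was lowest on Get1 +/- array 6 (2177) and between 2778 and 3833 on the other 5 arrays. Its second, less bright probe set went the other way, with a difference of -0.40 (limma adjusted p = 0.841 over all probe sets). There the groups did not overlap, at 392.5 to 400.7 in Get1 -/- and 457.3 to 573.3 in Get1 +/- bladders. Pdia6 had equal means within its error (difference -0.0060, SE 0.25). Pdia4 was dim, with 27.5, 84.8 and 57.3 on the Get1 -/- arrays, against 33.2, 58.4 and 20.7 on the Get1 +/- arrays, and its groups overlapped (difference 0.42, limma adjusted p = 0.862).

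A contrast within the same enzyme family was the 1 call near this machinery. Agr2, a disulfide isomerase of mucus-producing epithelium that is not among the 39, read 6228, 8453 and 8474 on the Get1 -/- arrays, against 375.3, 286.2 and 404.4 on the Get1 +/- arrays. All 3 Get1 -/- arrays lay far above the others, a 20.8-fold difference (95% interval 14.2 to 30.6, limma adjusted p = 0.000218). It passed in each of the 17 alternative analyses. Agr2 stands on the goblet list as well, whose other tested members moved with it. Of 9 tested goblet markers 9 had a difference above 0, with a median of 4.37. Of these 7 were called higher, Agr2 included, against 0.448% of all genes tested. Muc2, Tff3, Fcgbp, Zg16 and Spink4 had Get1 +/- means under the filter level and passed it only through the Get1 -/- arrays. The counts and the median of this list therefore depend in part on the filter. Spdef, Atoh1, Gfi1 and Retnlb lay below the filter, with differences of 2.01, 0.92, 1.03 and 0.039 in the fit without it. Which cells made Agr2 was not measured.

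**Figure D4:**
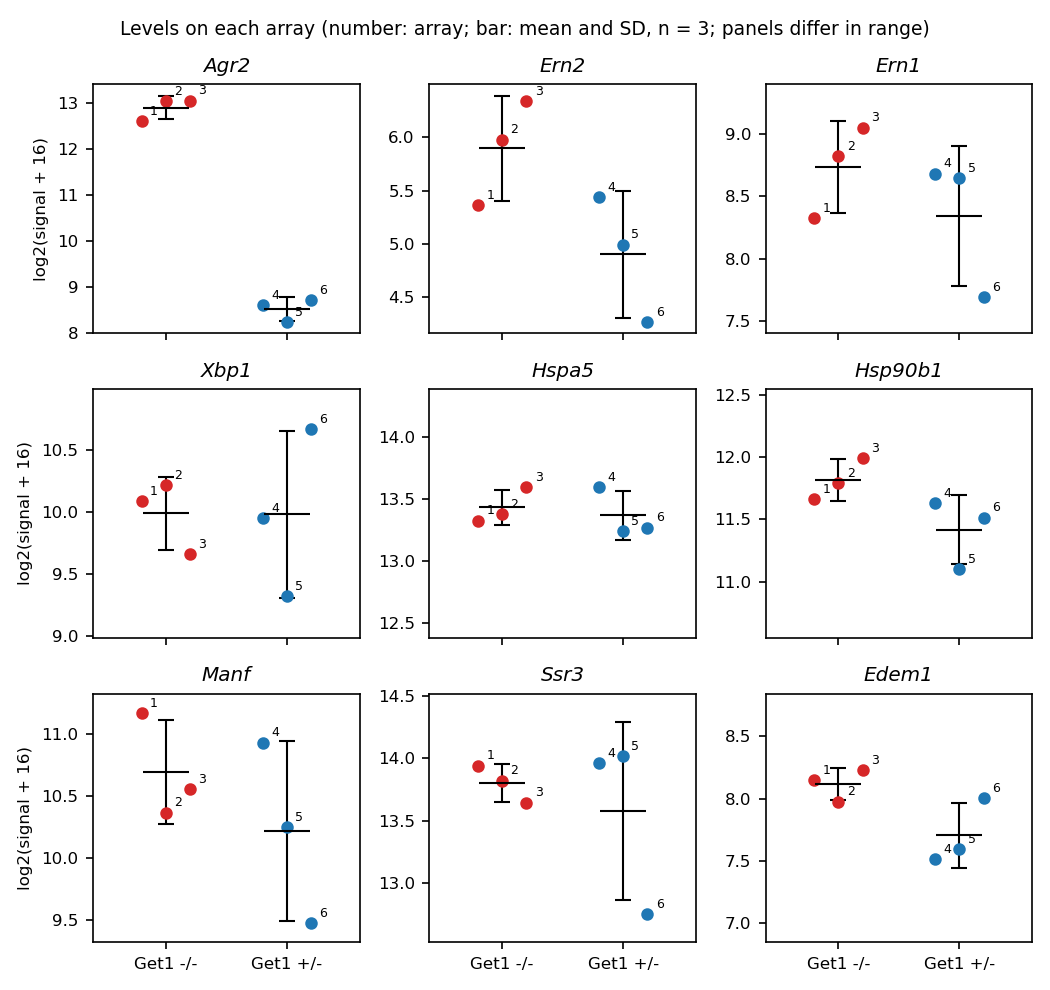
Log2 level on each array (numbered points) with mean and SD (n = 3) for Agr2, Ern2, Ern1, Xbp1, Hspa5, Hsp90b1, Manf, Ssr3 and Edem1, with Get1 -/- left and Get1 +/- right in each panel and panels of different range. Agr2 separates the genotypes by 4.38, Hsp90b1 by a narrow gap, and the other genes overlap.

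By brightest probe set, ER-associated degradation was the role without a lean: 3 of its 7 tested members had a difference above 0 and 4 below, with a median of -0.013. Edem1, a lectin that hands misfolded glycoproteins to the pathway, had the smallest adjusted p of all members. It read 267.6, 235.6 and 284.2 on the Get1 -/- arrays, against 166.6, 177.1 and 240.9 on the Get1 +/- arrays. Get1 +/- array 6 lay within the Get1 -/- range (difference 0.41, SE 0.23, limma adjusted p = 0.734). Syvn1 encodes HRD1, the ubiquitin ligase of the pathway, and Sel1l its partner. Syvn1 read 200.4, 77.6 and 223.5 on the Get1 -/- arrays, against 202.3, 235.6 and 179.8 on the Get1 +/- arrays. Its negative difference rested on Get1 -/- array 2, without which it was 0.045. Sel1l stayed between 6034 and 6981 on all 6 arrays (difference 0.08, limma adjusted p = 0.967). Herpud1, a ligase cofactor induced by ER stress, lay between 631.8 and 882.4 on all 6 arrays (difference -0.08, limma adjusted p = 0.972). Of the derlins, which form part of the exit channel, Derl1 and Derl2 had differences of -0.12 and 0.18. The less bright Derl1 probe sets went the other way, with 0.092, 0.102 and 0.296. On the last of these the groups did not overlap, with Get1 -/- higher. Derl3 lay below the dim filter, at 2.1, 41.8 and 22.5 on the Get1 -/- arrays and 2.8, 26.9 and 20.3 on the Get1 +/- arrays (difference 0.15, limma adjusted p = 0.981 without the filter). Edem2, close to the filter, had a difference of -0.013.

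The translocation and processing genes were bright and mostly steady, with 8 of 9 differences above 0 (median 0.20, range -0.23 to 0.32). Sec61b, the small beta subunit of the channel, read 10083, 11405 and 11146 on the Get1 -/- arrays, against 11061, 8644 and 8413 on the Get1 +/- arrays (difference 0.22, limma adjusted p = 0.871). Sec61a1, which forms the pore itself, had a difference of -0.23 with its 6 probe sets between -0.23 and 0.73. The TRAP subunit Ssr3, which helps the channel open, read 15732, 14467 and 12794 on the Get1 -/- arrays, against 15966, 16547 and 6870 on the Get1 +/- arrays. Array 6 was low by itself, and the difference of 0.23 became -0.19 without it. Ostc, a subunit of the enzyme that attaches sugar chains, showed the same array, at 3456, 3023 and 3525 on the Get1 -/- arrays against 3155, 3497 and 1707 on the Get1 +/- arrays. Its difference of 0.32 was 0.0020 without array 6 and 0.52 without array 5. The other TRAP subunits Ssr1 and Ssr2 had differences of 0.25 and 0.17, and the signal peptidase subunits Spcs1, Spcs2 and Sec11c of 0.20, 0.06 and 0.12 (limma adjusted p from 0.873 to 0.985).

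The spread within the genotypes was wider on the heterozygous side. The median SD over 3 arrays was 0.18 in Get1 -/- and 0.37 in Get1 +/- bladders for the members, against 0.26 in Get1 -/- and 0.35 in Get1 +/- bladders for all genes tested. For 28 of the 37 members (75.7%) the Get1 +/- SD was the larger, as it was for 63.5% of all genes. Get1 +/- array 6 held the lowest value of 15 members and array 5 that of 12, while the median of all genes on array 6 lay 0.06 above the Get1 +/- mean. The quality of the RNA was not measured here.

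The 39 genes were represented by 93 probe sets, from 1 to 6 a gene, and 78 of these reached the level of the filter. Of the 78, 59 had a difference above 0 and 1 an unadjusted p under 0.05, a dim probe set of the signal peptidase gene Sec11c (0.90), whose bright probe set had 0.12. Of 24 members with several such probe sets, 13 had all of them on one side of 0. For 6 members, Xbp1, Hyou1, Calr, Canx, Syvn1 and Derl1, the name of the brightest probe set marks a possible match to other transcripts.

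The wider pathway had no call outside Agr2 and no lean. Of 127 tested genes on 6 further lists, 1 was called higher and 0 lower, 63 had a difference above 0 and the median was 0. In translocation and glycosylation 0 of 25 passed (median -0.0010), with Serp1 at 0.39 and Sec61a2 at -0.33. In ER-to-Golgi transport 0 of 28 passed (median 0.0070), with the COPII organiser Sec16b at 0.50 and the COPII coat gene Sec24a at 0.56 (limma adjusted p = 0.738 and 0.840). In folding and redox chemistry 1 of 27 passed, Agr2, with a median of 0.0080. Ero1a, the oxidase that recharges disulfide isomerases, had a difference of 0.48 and its paralogue Ero1b one of -0.50 (limma adjusted p = 0.711 and 0.797).

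In ER-associated degradation 0 of 19 further genes passed (median 0.0070). Sel1l3, a relative of Sel1l, read 396.2, 426.8 and 451.1 on the Get1 -/- arrays, against 183.1, 283.2 and 129.2 on the Get1 +/- arrays. The groups were apart, and the difference of 1.1 (SE 0.29) missed the threshold (limma adjusted p = 0.317). Edem3 had a difference of 0.41 (limma adjusted p = 0.766). Among sensors and related bZIP factors 0 of 11 passed (median 0.08). Eif2ak3, which encodes the sensor PERK, read 161.5, 117.5 and 155.4 on the Get1 -/- arrays, against 226.5, 204.9 and 180.6 on the Get1 +/- arrays. All 3 Get1 -/- arrays were the lower ones (difference -0.46, limma adjusted p = 0.677). Creb3l4, a membrane-bound factor of the Creb3l1 family, read 58.9, 112.9 and 142.2 on the Get1 -/- arrays, against 56.0, 3.3 and 44.5 on the Get1 +/- arrays. Its groups touched without overlapping (difference 1.40, SE 0.52, limma adjusted p = 0.553). Creb3l4 was dim, and its Get1 +/- mean of 5.45 lay under the filter level of 5.80. Nfe2l2, the oxidative stress factor NRF2, had a difference of 0.50 (limma adjusted p = 0.583), and its groups were apart too. Of the 127 wider genes, 4 had groups apart with Get1 -/- higher and 4 with it lower, against 6.07% and 7.36% of all genes.

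Targets of the PERK and ATF4 arm gave 0 of 17 calls, with 7 differences above 0 and a median of -0.19. That median was 0.036 with probe sets averaged, -0.019 without the dimmest 50% of genes and -0.0080 without Get1 +/- array 6. Phgdh, of serine synthesis, read 1504, 2854 and 2334 on the Get1 -/- arrays, against 3271, 1815 and 8557 on the Get1 +/- arrays. Its high value on array 6 set the difference of -0.78 (SE 0.54, limma adjusted p = 0.796). Ppp1r15a, the GADD34 phosphatase subunit that ends the PERK signal, was also highest on array 6, at 232.4 against 58.7 to 111.6 on the other 5 arrays. Cebpg, a partner of ATF4, had a difference of 0.76 and the cystine transporter gene Slc7a11 one of -0.83 (limma adjusted p = 0.656 and 0.715).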

How the data were processed

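RNA of 6 mouse bladder samples was measured on 1 array each. The authors deposited 1 linear intensity for each probe set and array. The submitters' processing notes list Affymetrix Expression Console 1.1 and, with no role stated, PLIER 2.0. How background and scaling were handled is not stated. Array upper quartiles were 335.6 to 372.2. The number of arrays limits the precision.

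Probe sets were named through the platform annotation, with symbols checked against GRCm38.p6 (0 altered). A gene was its brightest probe set over all 6 arrays. Values were taken as log2(value + 16), which understates folds of dim genes. The 30% of genes with the lowest mean (log2 under 5.80) were left out. Genotypes were compared over 12735 genes with limma 3.58.1 in R 4.3.3 (lmFit, eBayes, two-sided, Benjamini-Hochberg). The fit was tested on simulated data. Alternatives changed offset, filter, scaling, probe set choice, variance model and arrays. Named genes were all members, Grhl3, and in each list its calls and up to 4 others with the smallest p. Members and lists were chosen with earlier results of these data known. Promoter sequences are RefSeq's. Groups come from titles.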

Additional observations from a re-analysis of the deposited data

How the results depend on the processing

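Of 653 member values under 17 alternatives, 0 passed the threshold (smallest adjusted p = 0.451, for Edem1, limma), and the counts of members called stayed at 0 in each direction. The median of the members ranged from 0.11 to 0.22. That of the PERK and ATF4 targets was 0.036 with probe sets averaged, 0.036 without probe sets that may match several transcripts and 0.0040 with array weights, against -0.19. Over all genes, 35 were higher and 5 lower with an offset of 1, and 5 were lower without the dimmest 50%. Counts with 1 array left out ran from 38 (without Get1 -/- array 3) to 54 higher and from 5 (without Get1 -/- array 2 or Get1 +/- array 5) to 9 lower, against 57 and 8 with all arrays. No paired analysis was made because the titles name no litter or pair. Signs of uncalled members turned in 55 values of 21 genes, and the cause was not tested. These genes included Syvn1, Sdf2l1 and Sec61a1, with main differences of -0.38, 0.34 and -0.23. With array weights the differences were -0.034 (Atf4), -0.013 (Derl2), -0.013 (Dnajb9), 0.030 (Edem2), -0.060 (Pdia3), 0.11 (Pdia6), -0.0040 (Sdf2l1), -0.18 (Spcs2) and -0.071 (Ssr3). With probe sets averaged they were -0.32 (Atf4), -0.052 (Ddit3), 0.093 (Derl1), -0.046 (Hspa5), -0.13 (Pdia3), 0.14 (Pdia6), 0.13 (Sec61a1) and -0.072 (Sel1l). Centring gave 0.030 (Dnajb11), 0.032 (Edem2) and 0.039 (Pdia6), and quantile normalization 0.022 (Edem2) and 0.0020 (Pdia6). Without probe sets that may match several transcripts they were -0.0080 (Canx) and 0.10 (Derl1). With 1 array left out the ranges were -0.32 to 0.35 (Xbp1), -0.047 to 0.18 (Atf4), -0.16 to 0.43 (Ddit3), -0.017 to 0.18 (Hspa5), -0.029 to 0.45 (Hyou1), -0.013 to 0.38 (Dnajb9), -0.16 to 0.21 (Dnajb11), -0.11 to 0.29 (Pdia3), -0.20 to 0.18 (Pdia6), -0.17 to 0.061 (Herpud1), -0.63 to 0.045 (Syvn1), -0.28 to 0.072 (Derl1), -0.072 to 0.36 (Derl2), -0.090 to 0.086 (Edem2), -0.19 to 0.45 (Ssr3), -0.23 to 0.28 (Spcs2) and -0.22 to 0.61 (Derl3).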
